A study of Mus musculus with 14 samples.

Results

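The glycerol phosphate pathway is the main route by which most cells build triglyceride and phospholipid. Glycerol 3-phosphate, made from dihydroxyacetone phosphate by a glycerol 3-phosphate dehydrogenase or from glycerol by a kinase, takes up 1 acyl chain to give lysophosphatidate and another to give phosphatidate, which a phosphatase turns into diacylglycerol. Absorptive cells of the small intestine also have a second route, which starts from the monoacylglycerol of digested fat and joins the first at diacylglycerol. The 10 genes described here were chosen by name from the 54532 genes in the count table. They are Gpd1, the cytosolic glycerol 3-phosphate dehydrogenase, the glycerol 3-phosphate acyltransferase genes Gpam, Gpat3 and Gpat4, the lysophosphatidate acyltransferase family genes Agpat1, Agpat2 and Agpat3, and the lipin phosphatidate phosphatase genes Lpin1, Lpin2 and Lpin3. All 10 had enough reads to be tested.

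RNA of the scraped ileum mucosa was sequenced for 14 male mice, 7 WT and 7 IKO, to ask what the loss of the nuclear receptor corepressor NCoR1 in intestinal epithelial cells (IECs) does to the transcriptome under a high-fat diet (HFD). The WT mice carried NCoR1 flox/flox alleles without Cre, and the IKO mice carried the same alleles with a Cre recombinase under the villin promoter, which is active in the intestinal epithelium and not in the other cells of the mucosa. Both genotypes received the HFD, with 60% of its energy from fat, for 15 weeks. The study's methods give an age of 7 to 8 weeks at the start of feeding, and another passage of the study gives an older age. A scraped mucosa is a mixture of cells, so fewer cells of a type and less RNA per cell cannot be told apart in these samples.

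The libraries held between 14749669 and 21557468 counted reads. Levels are given as CPM (counts scaled to a common library size), with TMM-scaled library sizes, and differences as log2 fold changes of IKO against WT from edgeR's quasi-likelihood test, called at a Benjamini-Hochberg adjusted p under 0.05 over the 13846 genes tested. Of these genes, 607 were higher and 593 lower in the IKO mice, 8.67% in all, and the median log2 fold change was -0.091. Ncor1 had 135 ± 31.3 CPM (SD, n = 7) in WT mice and 50.6 ± 10.97 CPM (SD, n = 7) in IKO mice, with every IKO sample below every WT sample. In IKO 4 and WT 3, mitochondrially encoded transcripts made up 50.3% and 23.9% of the reads, against 3.49% to 10.3% elsewhere. The 6 smooth muscle markers summed to 10855 CPM in WT 4 and to at most 796 CPM elsewhere. The 8 enterocyte markers summed to between 18304 and 86459 CPM in WT samples and between 42097 and 66852 CPM in IKO samples, with WT 1, WT 3 and WT 7 below all IKO samples. The markers of the epithelial cells named in the labels were thus abundant in each library, and those of other mucosal cells were also present. Of the 5 B and plasma cell, 5 T cell and 6 macrophage markers, 0, 0 and 1 had a log2 fold change above 0, with medians of -1.63, -0.39 and -0.38, and none passed the test. The part of these cells in the values below was not tested.

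Compared with the WT mice, 1 of the 10 pathway genes passed the test in the IKO mice, and 0 of 10 when IKO 4, WT 3 and WT 4 were left out together. The gene that passed was Gpd1, the gene at the entry of the pathway, whose level was 1.92 times as high. None of the acyltransferase or lipin genes passed in either direction. Gpat4 and Lpin2 had higher means and Agpat3 and Lpin1 lower means in IKO mice, each with an adjusted p between the threshold and 0.1. Called genes were thus 1 in 10, beside 8.67% of all genes tested. In IKO against WT mice, the log2 fold change was above 0 for 7 of the 10 genes, beside 43.5% of all genes tested, with a median of 0.18. Lpin3, one of the other 3, changed sign in 5 of 25 alternative settings, among them the FPKM scale.

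**Figure D1:**
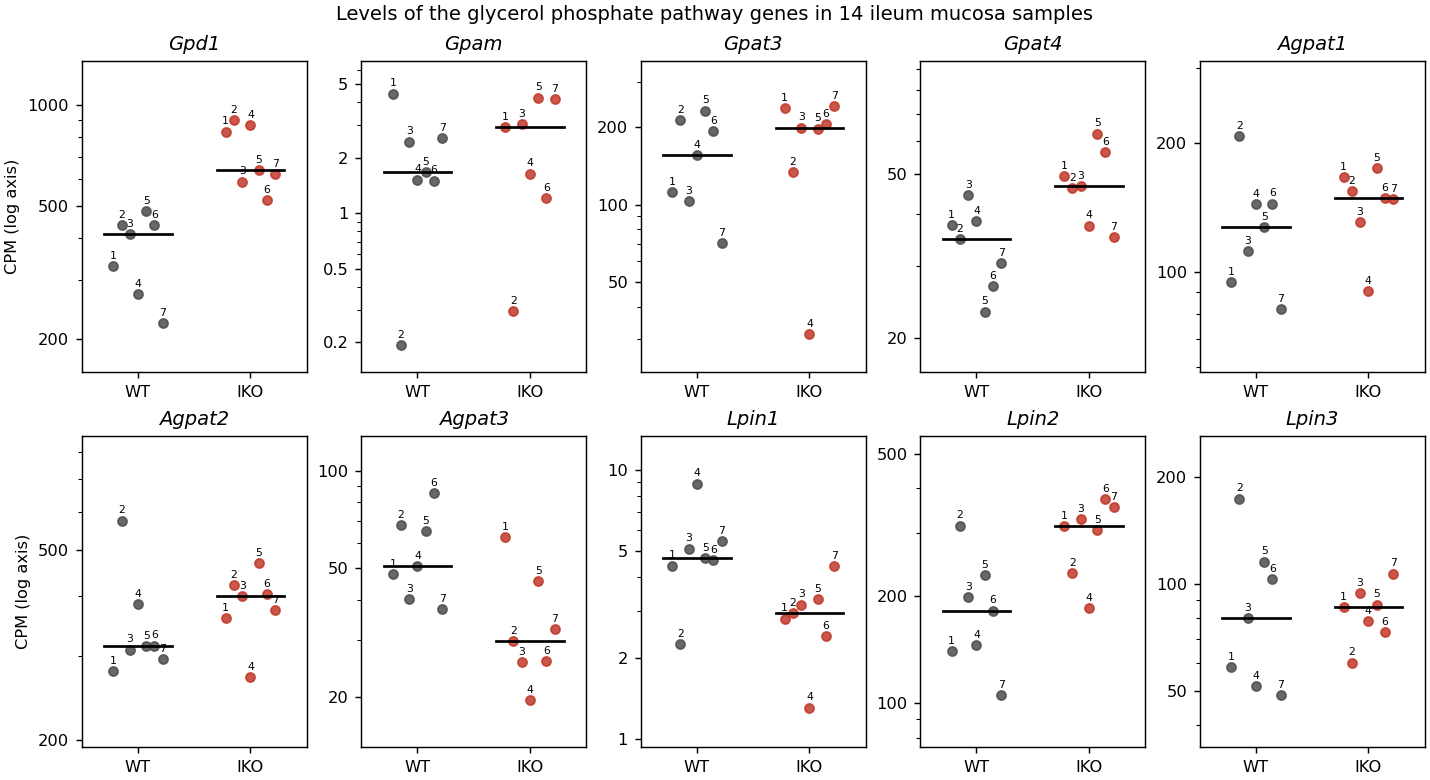
Level of each of the 10 genes in CPM (log axis, scaled separately for each gene) in the 7 WT (grey) and 7 IKO (red) samples, where each point is 1 mouse with its sample number and each bar is the median of a genotype. The Gpd1 points of the genotypes do not overlap (WT up to 482 CPM, IKO from 520 CPM), whereas those of the other 9 genes do.

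Gpd1 (chromosome 15, 99717515 to 99725005, plus strand, mm10) reduces dihydroxyacetone phosphate from glycolysis to glycerol 3-phosphate in the cytosol. Its level was 330, 436, 411, 272, 482, 436 and 223 CPM in WT 1 to WT 7. In IKO 1 to IKO 7 it was 833, 903, 590, 871, 637, 520 and 621 CPM. Every IKO sample was above every WT sample, which was so for 1.83% of all genes tested, and such a separation in either direction for 3.1%. The means were 370 ± 96.5 CPM (SD, n = 7) in WT mice and 711 ± 154 CPM (SD, n = 7) in IKO mice. Between genotypes, the log2 fold change was 0.94 ± 0.21 (SE, edgeR adjusted p = 0.0156), or a fold of 1.92 with a 95% interval of 1.41 to 2.61. The call held with each of the 14 samples left out in turn, with log2 fold changes of 0.84 to 1.02. With IKO 4 and WT 3 left out together it was 0.91 (edgeR adjusted p = 0.0360), and with WT 4 also left out it was 0.84 (edgeR adjusted p = 0.0738), which did not pass.

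Gpd1 was also set beside the marker sums. In WT 2, WT 4, WT 5 and WT 6 the enterocyte sums were between 50252 and 86459 CPM, within or above the range of the IKO samples. Gpd1 was at 436, 272, 482 and 436 CPM there, below its level in each IKO sample. Fabp2 and Apoa1 gave most of each sum, and Fabp1 was itself called higher in IKO mice. The markers also disagreed: in IKO 4, Epcam (505 CPM) was the lowest and Vil1 (5433 CPM) the highest of all samples. The part of enterocyte RNA in the Gpd1 values was not tested. Adipocytes also express Gpd1 strongly. The 8 white adipocyte markers summed to a median of 90.6 CPM in WT (range 30.7 to 175) and 152 CPM in IKO samples (range 87.0 to 216), with Cidec, which coats lipid droplets, as the most abundant of them in every sample. Among IKO samples, the highest sums were in IKO 1 (216 CPM), IKO 4 (194 CPM) and IKO 2 (157 CPM), which also had the highest Gpd1, and the lowest were in IKO 3 (87.0 CPM) and IKO 6 (90.4 CPM), which had the lowest. Among WT samples, WT 2, WT 3 and WT 4 had sums of 175, 164 and 164 CPM, within the range of the IKO samples. Their Gpd1 was at 436, 411 and 272 CPM, below each IKO sample. The sum of WT 2 was nearly all Cidec, at 171 CPM, and this library held 0 reads of Adipoq, Lep, Cfd and Retn. IKO 2, with the highest Gpd1, held 2 reads of Adipoq, against 90 in IKO 1 and 81 in IKO 5. Of the 8 markers, Adipoq, Plin1, Lep and Retn were too low to be tested, at no more than 5.26, 4.38, 5.98 and 2.81 CPM in any sample. Fabp4 reached 53.8 CPM and Lpl 40.2 CPM, both in WT samples, and Cfd reached 18.8 CPM in IKO 1. The 4 tested markers did not pass, with log2 fold changes of 3.16 for Cfd, 0.70 for Cidec, -0.58 for Fabp4 and -1.36 for Lpl. Mean levels of Adipoq were 0.569 CPM in WT and 1.68 CPM in IKO mice, and those of Retn 0.256 and 1.05 CPM. Plin1 was also higher on average in IKO mice (0.829 and 1.41 CPM), whereas Lep was lower (1.30 and 0.619 CPM). The part of adipocyte RNA in the Gpd1 values was not tested.

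The 3 tested genes whose levels followed that of Gpd1 most closely, after the genotype means were removed, were Slc25a34, which codes for a carrier of the mitochondrial solute carrier family, Gnb1, a G protein beta subunit, and Srxn1, sulfiredoxin. Their Pearson correlations with Gpd1 over the 14 samples were 0.93, 0.92 and 0.91. They are the closest of 11268 genes compared, the points share their libraries, and no test was made. Slc25a34 was itself higher in IKO mice, with 74.8 against 32.7 CPM and a log2 fold change of 1.19 (edgeR adjusted p = 0.00480). No other pathway gene came as close to Gpd1, the nearest being Lpin3 with a correlation of 0.54. Without IKO 4 the nearest was Agpat3 (0.59), followed by Lpin3 (0.57) and Agpat1 (0.52).

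The first acyl chain is added by the glycerol 3-phosphate acyltransferases. Gpam codes for the enzyme of the outer mitochondrial membrane, and Gpat3 and Gpat4 for those of the endoplasmic reticulum. Levels of different genes are set side by side on the FPKM scale, which divides counts by the gene length of the files. Comparisons between genes thus depend on these lengths. On this scale Gpat3 was by far the most abundant of these acyltransferase genes in the WT mucosa, with 43.2 ± 17.4 FPKM (SD, n = 7). Gpat4 had 4.92 ± 1.04 FPKM (SD, n = 7) and Gpam 0.522 ± 0.335 FPKM (SD, n = 7) in the same mice. Gpat3 thus made up 87.0 ± 6.30% (SD, n = 7) of the FPKM sum of these genes in WT mice and 83.5 ± 10.8% (SD, n = 7) in IKO mice. The lower IKO mean came from IKO 4, at 59.6%, and without it the mean was 87.4 ± 2.81% (SD, n = 6).

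Gpat3 (chromosome 5, 100845713 to 100899102, plus strand) ranged from 70.5 to 232 CPM in WT samples, with a median of 156. In IKO samples it ranged from 31.2 to 242 CPM, with a median of 200. The lowest value of all belonged to IKO 4, the library with the largest mitochondrial share, and the next lowest IKO sample was at 133 CPM. Against WT mice, the log2 fold change was 0.21 ± 0.36 (SE, edgeR adjusted p = 0.731) and 0.40 without IKO 4 (edgeR adjusted p = 0.324). Its 95% interval, from 0.675 to 1.97 as a fold, was wide in both directions. Of its 3502 exon bases, 1052 also belong to 4930458D05Rik on the opposite strand, which had 1203 counts over the 14 samples against 42923 for Gpat3.

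Gpat4 (chromosome 8, 23171265 to 23208346, minus strand) had 23.2 to 44.4 CPM in WT samples, with a median of 34.7. In IKO samples it had 35.1 to 62.7 CPM, with a median of 46.8. Every IKO sample was above the WT median and 5 of 7 were above the highest WT sample, so the genotypes overlapped only through IKO 4 and IKO 7. On the log2 scale, the fold change of 0.51 ± 0.17 (SE, unadjusted p = 0.00965 and edgeR adjusted p = 0.0725) did not pass, with a fold of 1.42 and a 95% interval of 1.10 to 1.83. In DESeq2, which called 16.5% of the genes it adjusted (7.62% higher and 8.86% lower in IKO mice), the log2 fold change was 0.54 (adjusted p = 0.0260). The mean levels were 33.7 ± 7.35 CPM (SD, n = 7) in WT mice and 47.8 ± 9.77 CPM (SD, n = 7) in IKO mice.

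Gpam (chromosome 19, 55069734 to 55099451, minus strand) was scarce. It ranged from 0.193 to 4.45 CPM in WT samples, with a median of 1.67, and from 0.295 to 4.23 CPM in IKO samples, with a median of 2.92. The lowest sample of each genotype, WT 2 and IKO 2, held only 3 and 5 reads of this gene. The genotypes spanned nearly the same range, and the log2 fold change was 0.28 ± 0.55 (SE, edgeR adjusted p = 0.756). The 95% interval for the fold, 0.542 to 2.74, was the widest of the 10 genes.

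The acyltransferases encoded by Agpat1 and Agpat2 add the second acyl chain to lysophosphatidate, and Agpat3 codes for a member of the same family. Agpat2, the gene lost in a form of human congenital lipodystrophy, had the highest mean FPKM of the 10 genes in WT mice, 162 ± 47.0 FPKM (SD, n = 7). Agpat1 had 42.5 ± 13.6 FPKM (SD, n = 7) and Agpat3 7.10 ± 2.25 FPKM (SD, n = 7). Agpat2 took 76.6% of the FPKM sum of this step in WT and 77.5% in IKO mice on average, so the share of the leading gene was nearly the same in both.

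Agpat2 (chromosome 2, 26593057 to 26604417, minus strand) ranged from 279 to 574 CPM in WT samples (median 314) and from 271 to 468 CPM in IKO samples (median 400). Its log2 fold change was 0.13 ± 0.19 (SE, edgeR adjusted p = 0.676). Agpat1 (chromosome 17, 34604262 to 34613449, plus strand) ranged from 81.9 to 208 CPM in WT samples (median 127) and from 90.2 to 175 CPM in IKO samples (median 149). Both genes overlapped widely between genotypes, and for both 6 of 7 IKO samples were above the WT median, with IKO 4 the exception. The log2 fold change of Agpat1 was 0.15 ± 0.21 (SE, edgeR adjusted p = 0.641). The 95% intervals of the fold, 0.828 to 1.44 for Agpat2 and 0.821 to 1.51 for Agpat1, leave room for moderate differences either way.

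Agpat3 (chromosome 10, 78269178 to 78352489, minus strand) lay in the other direction. It had 37.3 to 85.6 CPM in WT samples, with a median of 50.7, and 19.6 to 62.5 CPM in IKO samples, with a median of 29.7. In 5 of 7 IKO samples it was below the lowest WT sample, and only IKO 1, at 62.5 CPM, exceeded the WT median. In IKO against WT mice, the log2 fold change was -0.71 ± 0.26 (SE, unadjusted p = 0.0142 and edgeR adjusted p = 0.0860), a fold of 0.611 with a 95% interval of 0.418 to 0.893. Leaving out IKO 1 gave -0.92 (edgeR adjusted p = 0.0428), which was the 1 of 25 alternatives in which Agpat3 passed. Its ratio to Agpat1 within a sample, on the FPKM scale, was 0.171 ± 0.0385 (SD, n = 7) in WT mice and 0.0898 ± 0.0263 (SD, n = 7) in IKO mice. This ratio was below the lowest WT value of 0.126 in 6 IKO samples and was 0.144 in IKO 1. The ratio was not among the planned comparisons and is given without a test.

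**Figure D2:**
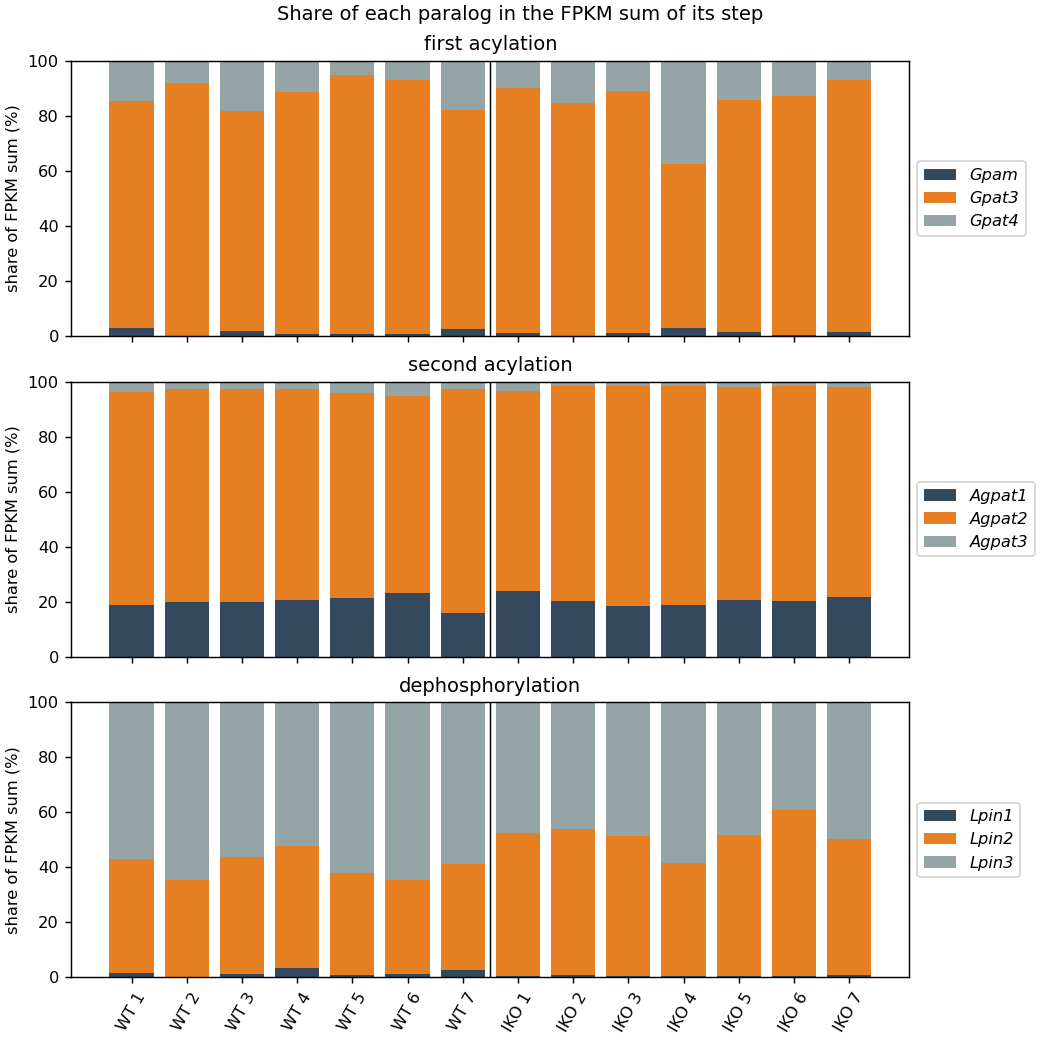
Share of each paralog, in percent of the FPKM sum of its step, in each of the 14 samples, for the first acylation, the second acylation and the dephosphorylation, with WT samples left and IKO samples right of the vertical line. Gpat3 and Agpat2 led their steps in every sample, while Lpin2 took 34.3% to 44.4% of the lipin sum in WT samples and 49.6% to 60.4% in 6 of the 7 IKO samples.

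Phosphatidate is converted to diacylglycerol by the lipins, which are soluble enzymes that bind to the membrane when they act. Lpin3 and Lpin2 were the main lipin genes of the ileum mucosa, with 23.9 ± 11.9 FPKM (SD, n = 7) and 15.0 ± 5.53 FPKM (SD, n = 7) in WT mice. Lpin1, the leading lipin gene of muscle and fat, had 0.511 ± 0.198 FPKM (SD, n = 7). In IKO mice the mean of Lpin2, at 24.4 ± 5.46 FPKM (SD, n = 7), stood next to that of Lpin3, at 22.7 ± 4.19 FPKM (SD, n = 7), and their ranges of 1 SD touched in both genotypes. The lengths used were 12233 bases for Lpin2 and 3694 for Lpin3. In CPM, without the length correction, Lpin2 had the higher WT mean, at 188 against 90.1. The size of their FPKM ratio and shares thus depends on these lengths, which are the same in all samples. Promoters are printed for this pair, the main lipin genes here, from RefSeq on the GRCm38.p6 build. Each stretch covers the 250 bases before the first start site listed for the gene, 5′ to 3′ on the plus strand, at chr17:71183282-71183531 for Lpin2 and chr2:160880420-160880669 for Lpin3. Capitals mark the motif letters found on either strand.
Lpin2: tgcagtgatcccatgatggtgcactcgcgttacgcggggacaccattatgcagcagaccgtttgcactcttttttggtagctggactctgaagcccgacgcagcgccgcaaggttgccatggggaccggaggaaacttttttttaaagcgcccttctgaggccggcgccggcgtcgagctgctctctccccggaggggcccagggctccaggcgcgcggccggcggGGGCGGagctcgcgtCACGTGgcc
Lpin3: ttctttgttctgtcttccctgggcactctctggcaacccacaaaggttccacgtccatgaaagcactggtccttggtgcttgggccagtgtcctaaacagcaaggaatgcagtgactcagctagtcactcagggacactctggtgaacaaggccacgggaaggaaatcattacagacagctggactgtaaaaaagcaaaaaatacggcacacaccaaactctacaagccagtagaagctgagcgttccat
The Lpin2 stretch holds 1 GC box (GGGCGG) and, close to the start site, 1 E-box (CACGTG), and the Lpin3 stretch holds none of the motifs searched. Windows at other start sites of this pair differ. Another Lpin3 window, starting at chr2:160887918, holds 1 GC box. Neither of the other Lpin2 windows holds the E-box, and the one starting at chr17:71204404 holds 3 CCAAT boxes and no GC box. The stretch of Lpin2 lies inside the gene span of the files, which starts at 71182560, and that of Lpin3 ends at the base before the gene's annotated start.

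The motifs searched in the 250 bases before each start were the nuclear receptor hexamer (AGGTCA), its direct repeats with 1 or 4 bases between the copies, which contain the hexamer, the E-box (CACGTG), the GC box (GGGCGG), the CCAAT box (CCAAT) and the TATA box (TATAAA), each on both strands. RefSeq windows were matched for 8 of the 10 genes, 13 windows in all. None was matched for Gpd1 or Gpat4, so the promoters of these genes, including the called one, were not searched. The hexamer was in 3 of the 13, those of Agpat1, Gpam and Lpin1 (14% of all 32851 promoters), and neither repeat was in any (0.0335% and 0.0152%). The GC box was in 8 of the 13 windows (32.7% of all promoters), the CCAAT box in 3 (33.8%), the E-box in 1 (6.02%) and the TATA box in 0 (12.4%). A match of letters is a description of the sequence, and no binding was measured here.

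Lpin2 (chromosome 17, 71182560 to 71249817, plus strand) had 105 to 315 CPM in WT samples, with a median of 182. In IKO samples it had 184 to 373 CPM, with a median of 313. Every IKO sample was above the WT median, and 3 of 7 were above the highest WT sample, WT 2, which also had the highest enterocyte marker sum. Between genotypes, the log2 fold change was 0.67 ± 0.24 (SE, unadjusted p = 0.0121 and edgeR adjusted p = 0.0798), a fold of 1.59 with a 95% interval of 1.12 to 2.25. It passed in 2 of 25 alternatives. These were DESeq2 (0.70, adjusted p = 0.0321) and edgeR without WT 2 (0.84, adjusted p = 0.0292).

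Lpin3 (chromosome 2, 160880670 to 160906002, plus strand) had 48.6 to 174 CPM in WT samples, with a median of 80.0. In IKO samples it had 60 to 107 CPM, with a median of 85.9. The IKO samples lay within the WT range, and the log2 fold change of -0.11 ± 0.26 (SE, edgeR adjusted p = 0.813) turned to 0.14 without WT 2. Within genotypes, Lpin2 and Lpin3 varied together, with a correlation of 0.82 over the 14 samples, which share library and depth.

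The balance of the pair was compared within samples. The ratio of Lpin2 to Lpin3 on the FPKM scale was 0.665 ± 0.117 (SD, n = 7) in WT samples, with 0.852 as the highest. In IKO samples it was 1.09 ± 0.247 (SD, n = 7), and 6 of the 7 were above the highest WT sample. IKO 4, at 0.708, was the exception. In shares of the lipin FPKM sum, Lpin2 had 39.0 ± 3.79% (SD, n = 7) in WT mice and 51.2 ± 5.63% (SD, n = 7) in IKO mice, and Lpin3 59.4% and 48.2% on average. These ratios were chosen after the values were seen and are given without a test.

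Lpin1 (chromosome 12, 16535669 to 16610966, minus strand) had 2.25 to 8.88 CPM in WT samples, with a median of 4.71. In IKO samples it had 1.31 to 4.40 CPM, with a median of 2.95, and no IKO sample reached the WT median. The highest value was in WT 4, the library with the high smooth muscle markers, and the lowest in IKO 4, on 12 reads. Against WT mice, the log2 fold change was -0.79 ± 0.30 (SE, unadjusted p = 0.0163 and edgeR adjusted p = 0.0918), a fold of 0.576 with a 95% interval of 0.373 to 0.890. Without WT 4 it was -0.60 (edgeR adjusted p = 0.177), with IKO 4 and WT 3 also left out it was -0.44 (adjusted p = 0.323), and without WT 2 it was -0.92 (adjusted p = 0.0455). Of the 6 smooth muscle markers, all had a negative log2 fold change, with a median of -3.10, and none passed the test. The size of these changes rested on WT 4, where the markers summed to 10855 CPM, against at most 62.4 CPM in the other WT samples. In IKO samples the sum reached 796 CPM, in IKO 1. The medians of the sum were 22.6 CPM in WT and 10.5 CPM in IKO samples. A lower smooth muscle content of the IKO samples was thus not shown. The part of smooth muscle RNA in the Lpin1 values was not tested.

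**Figure D3:**
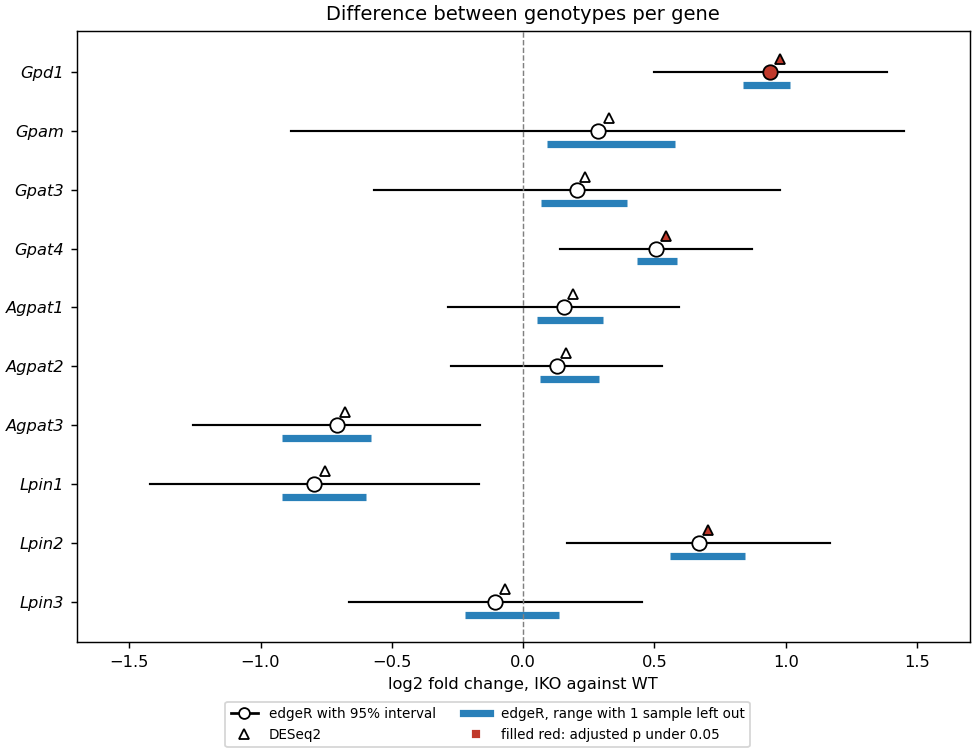
Log2 fold change of IKO against WT for each of the 10 genes, from edgeR (circles with 95% intervals) and DESeq2 (triangles), with the range over the 14 fits that each leave out 1 sample (blue bars) and red fill for an adjusted p under 0.05. Gpd1 is filled in both tools, Gpat4 and Lpin2 in DESeq2 alone, and the intervals of Gpam, Gpat3, Agpat1, Agpat2 and Lpin3 include 0.

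Summed over its 3 genes, the first acylation had 48.6 ± 16.7 FPKM (SD, n = 7) in WT mice and 58.7 ± 21.8 FPKM (SD, n = 7) in IKO mice. The second acylation had 212 ± 60.6 and 234 ± 37.8 FPKM, and the dephosphorylation 39.4 ± 17.2 and 47.5 ± 8.44 FPKM. The genotype means of each sum differed by less than 1 SD of the WT samples over all 7 IKO samples. For the first acylation this rested on IKO 4, at 15.1 FPKM against 45.0 to 76.3 FPKM in the other IKO samples. Without it the IKO mean was 66.0 FPKM, and the difference from WT mice grew from 10.1 to 17.4 FPKM, above the WT SD. That of the second acylation grew from 22.8 to 34.9 FPKM without IKO 4, which stayed below the WT SD. These sums without IKO 4 were added after the data were seen. In the order of FPKM levels, Agpat2 led and Gpd1 came second in WT mice, and Gpd1 led with 241 ± 52.1 FPKM (SD, n = 7) before Agpat2 with 182 ± 29.0 FPKM (SD, n = 7) in IKO mice. The ranges of 1 SD of these leaders touched in both genotypes. Gpat3, Agpat1, the more abundant lipins, Agpat3 and Gpat4 followed, and Gpam and Lpin1 came last in both genotypes. In CPM, the WT means were 370 for Gpd1 and 353 for Agpat2, so their order in WT mice depends on the length correction.

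Across the 45 pairs of the 10 genes, correlations of log2 CPM over the 14 samples, with genotype means removed, ranged from -0.55 between Gpam and Agpat2 to 0.86 between Agpat1 and Agpat2, with a median of 0.20. Some pairs varied together and others in opposite directions. Gpat3 varied with Agpat1 (0.79) and with Lpin2 (0.77), and hardly with Gpd1 (0.030, and 0.47 without IKO 4). These values describe libraries that share depth and cell makeup.

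The genes that supply glycerol 3-phosphate by other reactions or that use the products of the pathway were taken as 8 lists of 60 genes, of which 51 were tested. Of these 51, 1 was higher and 2 were lower in the IKO mice, beside 4.38% and 4.28% of all genes tested, and 30 had a log2 fold change above 0. The median was 0.14, against 0.18 for the 10 pathway genes and -0.091 for all genes tested. The 3 called genes were Pgp, Aqp3 and Dgkh.

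Pgp and Aqp3 belong to the 6 genes around the supply of glycerol 3-phosphate, which had a median log2 fold change of 0.36. Pgp codes for a phosphatase that can hydrolyze glycerol 3-phosphate to glycerol. It had 48.4 to 66.1 CPM in WT samples (median 56.6) and 65.1 to 127 CPM in IKO samples (median 88.3), and 6 of 7 IKO samples were above the highest WT sample. On the log2 scale, the fold change of Pgp was 0.70 ± 0.17 (SE, edgeR adjusted p = 0.0232). It was 0.62 (adjusted p = 0.0591) without IKO 4 and WT 3, 0.67 (adjusted p = 0.0700) with WT 4 also left out, and 0.66 (adjusted p = 0.0548) without WT 7.

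Aqp3, an aquaporin that passes glycerol as well as water, had 9.13 to 56.5 CPM in WT samples (median 27.5) and 4.81 to 17.6 CPM in IKO samples (median 10.99). No IKO sample reached the WT median, although the ranges overlapped. Its log2 fold change was -1.39 ± 0.39 (SE, edgeR adjusted p = 0.0406), and the call was lost in 16 of 25 alternatives, with values between -1.09 and -1.56 over all 25. Among the 16 were the fits without IKO 4 and WT 3 (adjusted p = 0.0534), WT 4 (adjusted p = 0.0544), WT 5 (adjusted p = 0.0668), WT 6 (adjusted p = 0.0655) and IKO 1 to IKO 6 in turn (adjusted p from 0.0537 to 0.0848). The other genes of this list did not pass.

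Of the 6 diacylglycerol kinases tested, which turn diacylglycerol back into phosphatidate, Dgkh passed and the list had a median of -0.079. Dgkh had 4.76 to 11.1 CPM in WT samples (median 6.07) and 1.19 to 4.65 CPM in IKO samples (median 2.40), without overlap, which was so in this direction for 1.26% of all genes tested. Its log2 fold change was -1.36 ± 0.31 (SE, edgeR adjusted p = 0.0188). It was -1.35 (adjusted p = 0.0637) without IKO 4, WT 3 and WT 4.

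In the monoacylglycerol pathway and triglyceride formation, none of the 4 tested genes passed, with a median of 0.31. Mogat2, the acyltransferase that starts the monoacylglycerol route in enterocytes, had 175 to 552 CPM in WT samples (median 351) and 227 to 670 CPM in IKO samples (median 566). Its log2 fold change was 0.48 ± 0.28 (SE, edgeR adjusted p = 0.252), and 4 of 7 IKO samples were above the highest WT sample. Dgat1 and Dgat2, which add the last acyl chain of triglyceride, also overlapped between genotypes. Dgat1 had a log2 fold change of 0.14 ± 0.33 (SE, edgeR adjusted p = 0.796), with means of 843 and 929 CPM in WT and IKO mice. Dgat2 had a log2 fold change of 0.54 ± 0.31 (SE, edgeR adjusted p = 0.249), with means of 206 and 299 CPM.

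None passed among the 4 other acyltransferases tested (median -0.28), the 6 genes of the lipin phosphatase complex and lipid phosphate phosphatases (median 0.28), the 7 genes of the CDP-diacylglycerol branch (median 0.13), the 12 of the phosphatidylcholine, ethanolamine and serine branch (median 0.10) or the 6 of lysophospholipid reacylation (median 0.23). Higher and lower members stood side by side in each of these lists.

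**Figure D4:**
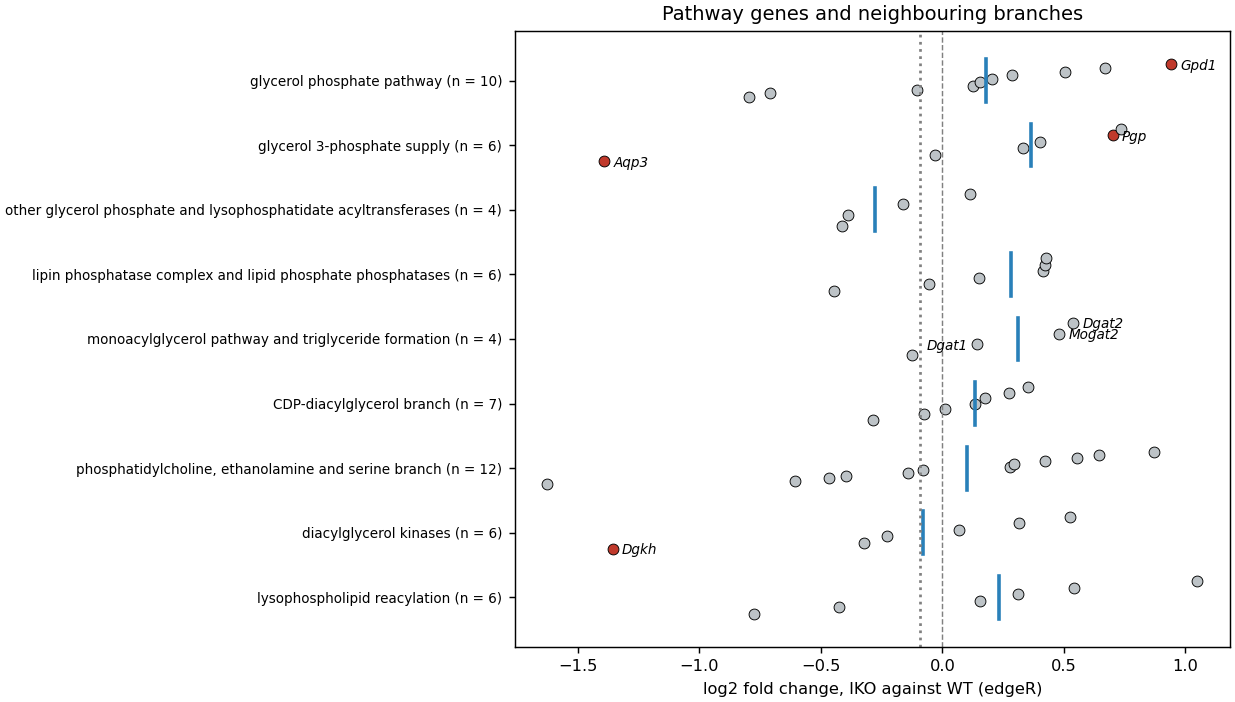
Log2 fold change of IKO against WT from edgeR for the 10 pathway genes and the 51 tested genes of 8 neighbouring lists, where each point is a gene, red points have an adjusted p under 0.05, blue bars are list medians and the dotted line is the median of all genes tested (-0.091). Gpd1 and Pgp are the called genes on the higher side and Aqp3 and Dgkh those on the lower side.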

How the data were processed

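According to the study's methods and the submitters' processing notes, libraries were made from total RNA of each mucosa, aligned with HISAT2 2.0.5 to mm10 and counted per gene with featureCounts 1.5.0-p3. Whether counting used strand is not given in the sources used here. The deposited counts are raw whole numbers. The deposited FPKM, tested on the values, are counts per length divided by DESeq2 size factors times 1 constant, and the authors used DESeq2 1.16.1. The mice with KO columns are those titled IKO. The 10 genes and all lists were chosen with earlier results of these data known.

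After filterByExpr and TMM, genotypes were compared by the quasi-likelihood test of edgeR 4.0.16 in R 4.3.3 (glmQLFit, glmQLFTest), without covariates, and p-values of 13846 genes were adjusted by Benjamini-Hochberg. Standard errors are the size of the log2 fold change divided by the square root of F. Named genes are the 10 pathway genes, called genes of the neighbouring lists, Mogat2, Dgat1 and Dgat2, Ncor1, and the 3 genes most correlated with each called pathway gene (mean log2 CPM of at least 1). Correlations use log2 CPM with a prior count of 2. Depth was 14749669 to 21557468 counts per sample. Alternatives were DESeq2 1.42.0, RLE normalization, mitochondrial genes removed, no filter, a minimum of 10 counts in all samples, limma 3.58.1 on log2(FPKM + 1) and log2(FPKM + 0.1) for genes above 0.5 FPKM in at least 7 samples, log2(FPKM + 1) unfiltered, a block for the sample number, each sample left out, and IKO 4, WT 3 and WT 4 left out together or without WT 4. Exon overlaps come from a GENCODE annotation of GRCm38, and promoter sequences from RefSeq.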

Additional observations from a re-analysis of the deposited data

Results flagged for a closer look

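In WT 2, Gpam stood apart from the other WT samples at 0.193 CPM, with a gap to the nearest sample of 0.617 of the group's range. In IKO 4, Gpat3 stood apart from the other IKO samples at 31.2 CPM, with a gap of 0.709 of the range. These were 2 of the 20 sets of 7 samples examined with Dixon's criterion at its 95% critical value, where chance gives about 1. Neither gene passed the test between genotypes with or without these samples. The log2 fold change was 0.089 for Gpam without WT 2 (edgeR adjusted p = 0.915) and 0.40 for Gpat3 without IKO 4 (edgeR adjusted p = 0.324). WT 2 held 3 reads of Gpam, and 50.3% of the reads of IKO 4 were mitochondrially encoded. The part of depth and of the mitochondrial share in these values was not tested.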

How the results depend on the processing

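The number of genes called, 1200 with edgeR, was 2571 with DESeq2, 508 without a filter, 614 with limma on log2(FPKM + 1) without a filter, 648 without IKO 4 and WT 3, 433 without IKO 4, WT 3 and WT 4, and between 515 (without IKO 5) and 1371 (without WT 2) with 1 sample left out. Of the 10 pathway genes 3 passed with DESeq2, 0 without IKO 4, WT 3 and WT 4, and 1 to 3 with 1 sample left out. Of the other pathway genes 5 passed with DESeq2, 1 with limma at either pseudocount, and 2 to 4 with 1 sample left out. Without IKO 4, WT 3 and WT 4, 1 passed, which was Lpcat3, a gene that edgeR did not call with all samples. The cause of these shifts was not tested. On log2(FPKM + 1), limma called 708 genes higher and 328 lower, against 607 and 593 with edgeR, and the median of all genes moved by 0.12 (0.13 at a pseudocount of 0.1). The log2 fold change of Lpin3, -0.11, reversed to 0.045 with limma on log2(FPKM + 1), with and without the filter, to 0.052 with log2(FPKM + 0.1), and to 0.14 without WT 2 (range -0.22 to 0.14 with 1 sample left out), and the first 3 of these are below that shift of the median. The other 9 pathway genes kept their direction in every alternative that tested them. Lpin1 fell under the FPKM filter and Gpam under that of 10 counts in every sample. The FPKM scale moved no ratio of mean levels by more than the spread between samples.

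The sample numbers are not known to pair the mice. Over the 7 pairs, deviations of same-numbered samples from the genotype means correlated between -0.31 and 0.23 (median -0.016), 1 pair was above 0.1, and 1 of the 7 WT samples correlated best with its own number. With the sample number as a replicate block, 362 genes, 0 of the pathway genes and 0 of the other pathway genes passed in edgeR, and the log2 fold change was 0.026 for Lpin3 and 0.96 for Gpd1 (adjusted p = 0.0632).

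Gpam and Lpin1 had the fewest reads, down to 3 and 12 in a library. The deleted stretch of Ncor1 is not seen apart from the rest of its gene, a mixed mucosa does not show which cells hold the RNA, and transcript levels say nothing of enzyme activity or lipid synthesis.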

Other observations

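With DESeq2, the neighbouring genes that passed were Pgp, Aqp3, Dgkh, Pcyt1a and Lpcat3, and the last 2 are named here after their values were seen. Lpcat3, which puts polyunsaturated acyl chains into lysophosphatidylcholine, had 125 to 406 CPM in WT samples and 165 to 830 CPM in IKO samples, with 6 of 7 IKO samples above the highest WT sample. Its log2 fold change was 1.05 ± 0.33 (SE, edgeR adjusted p = 0.0578). Besides DESeq2, Lpcat3 passed in edgeR without IKO 4, without IKO 4 and WT 3, and without IKO 4, WT 3 and WT 4. It passed in no other alternative. Pcyt1a, which codes for the enzyme that makes CDP-choline, had a log2 fold change of 0.87 ± 0.31 (SE, edgeR adjusted p = 0.0799), with means of 152 and 278 CPM in WT and IKO mice.

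Summed markers of the ileal enterocyte ranged from 802 to 9036 CPM in WT and from 1045 to 6963 CPM in IKO samples. Those of B and plasma cells, with Jchain the most abundant, ranged from 106 to 692 and from 87.3 to 426 CPM, those of T cells from 43.2 to 114 and from 36.0 to 71.7 CPM, and those of macrophages from 36.7 to 131 and from 21.3 to 72.4 CPM. Paneth cell markers summed to 600 to 4416 CPM in WT and 931 to 5021 CPM in IKO samples, and goblet cell markers to 3680 to 16462 and 3658 to 19857 CPM. Pancreatic acinar markers stayed under 1 CPM in sum in every WT sample and reached 11.6 CPM in IKO 4. The pancreatic acinar markers were too low to be tested. Of the B cell markers apart from Jchain, mean levels in WT and IKO mice were 46.0 and 13.02 CPM for Cd79a, 23.8 and 7.66 CPM for Cd79b and 16.8 and 3.51 CPM for Ms4a1. The medians lay closer, at 23.7 and 14.4, 12.8 and 8.36, and 5.22 and 3.24 CPM. The highest WT values were 180, 80.1 and 53.6 CPM. No gene of the other lists in this paragraph passed the edgeR test. Of the enterocyte markers 1 of 8, Fabp1, was higher in the IKO mice.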
